A study of Mus musculus with 26 samples.

Results

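NIH3T3 cells, a long-kept fibroblast line from mouse embryos, were followed here for 9 genes of the TGF-beta and BMP feedback circuit under heat, oxidative and osmotic stress. The genes were chosen by symbol: the ligands Tgfb1 and Tgfb2, the inhibitors of differentiation Id1, Id2 and Id3, the inhibitory SMADs Smad6 and Smad7, and the SMAD corepressors Skil and Tgif1. All 9 were found among the 20430 genes of the RNA table and among the 19941 genes of the footprint table, and all 9 passed the filter on low counts in every fit. PolyA-selected RNA was sequenced in 16 libraries, and ribosome footprints, the mRNA fragments that ribosomes shield from nuclease, in 10 libraries, with 2 replicates in each of the 13 groups. The heat experiment had RNA alone: cells kept at 44 °C for 2 h, cells kept at 42 °C for 8 h, and a control of their own. The second experiment had RNA and footprints: cells given H2O2 (oxidative stress) for 2 h or 7 h, cells given KCl (osmotic stress) for 2 h or 7 h, and 1 control group for both agents. Doses of H2O2 and KCl are in none of the labels. All groups are of the same line, and the labels name no genetic change. The labels do not say whether replicates came from separate cultures, so p-values measure only the spread between these samples, which may be technical.

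TGF-beta ligands bind paired serine/threonine kinase receptors, which phosphorylate SMAD2 and SMAD3; BMP ligands act likewise through SMAD1 and SMAD5. Phosphorylated SMADs join SMAD4, enter the nucleus and raise the transcription of target genes, among them their own inhibitors. SMAD7 blocks the receptors of both branches, SMAD6 acts mainly on the BMP branch, and SnoN (the product of Skil) and TGIF1 hold back SMAD-driven transcription. The ID proteins have a helix-loop-helix domain without a DNA-binding region, pair with E proteins and keep them off DNA, and their genes are known targets of BMP signalling. In fibroblasts the pathway is best known for driving matrix production.

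RNA libraries held 24441877 to 45244430 expected counts and footprint libraries 1460751 to 5168537, the lowest and the highest of the latter being replicates 1 and 2 of H2O2 at 2 h. All 10 fibroblast markers had a median of at least 1 TPM over the RNA libraries, with a summed level of 4260 to 11700 TPM. Of the markers of other cell types, 1 of 6 epithelial genes (Krt18, 6.46 to 17.19 TPM; summed level 8.78 to 19.6) and 1 of 5 blood genes (Cd68, 5.32 to 44.68 TPM; summed level 5.33 to 44.8, with Cd3e at 0 throughout) reached that median, as did 0 of 4 endothelial and 0 of 3 muscle genes. In bulk RNA, fewer cells that express a gene and less RNA of it per cell cannot be told apart.

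The promoters of Id2, Id3 and Tgfb1 are shown because Id2 and Id3 both rose in KCl while Id3 fell late in H2O2, and Tgfb1 was lower in every stress. Each is the 250 bases before the start of transcription in RefSeq on GRCm38.p6, on the strand of the gene. Capitals mark matches, on either strand, to 5 short motifs: CAGACA (the SMAD box), GGCGCC (a GC-rich SMAD element), TGANTCA (AP-1), CANNTG (the E-box) and GGGCGG (the SP1 box). The windows are chr12:25096093-25096342 (minus strand) for Id2, chr4:136143572-136143821 (plus) for Id3 and chr7:25686752-25687001 (plus) for Tgfb1.
Id2: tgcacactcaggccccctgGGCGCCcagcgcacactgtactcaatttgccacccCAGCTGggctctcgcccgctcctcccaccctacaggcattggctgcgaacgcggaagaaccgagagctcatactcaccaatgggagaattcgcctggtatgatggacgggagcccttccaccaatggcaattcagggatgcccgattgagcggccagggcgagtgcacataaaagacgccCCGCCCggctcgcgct
Id3: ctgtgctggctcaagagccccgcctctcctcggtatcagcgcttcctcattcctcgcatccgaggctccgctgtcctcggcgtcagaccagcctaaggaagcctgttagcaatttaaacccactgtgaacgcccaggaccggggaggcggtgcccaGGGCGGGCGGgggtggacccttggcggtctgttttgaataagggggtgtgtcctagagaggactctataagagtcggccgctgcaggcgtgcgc
Tgfb1: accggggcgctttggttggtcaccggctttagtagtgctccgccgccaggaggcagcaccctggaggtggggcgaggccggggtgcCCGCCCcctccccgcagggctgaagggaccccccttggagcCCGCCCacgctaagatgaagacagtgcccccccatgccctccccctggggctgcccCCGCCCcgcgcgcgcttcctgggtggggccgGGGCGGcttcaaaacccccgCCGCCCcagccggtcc
The Id2 window holds a GGCGCC starting at -231, an E-box at -196 and an SP1 box at -16 from the start. The Id3 window holds 2 SP1 boxes that overlap each other and none of the other motifs, and the Tgfb1 window holds 5 SP1 boxes and none of the others. GC content is 62.8% in the Id2 and Id3 windows and 75.2% in that of Tgfb1.

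RefSeq windows of Id2, Id3, Smad6, Tgif1, Tgfb1 and Tgfb2 were counted, 10 in all, and Id1, Smad7 and Skil are not covered. Tgif1 has several starts and gave more windows than any other gene. A SMAD box was in 3 of the 10, where 17.1% of 32851 windows of the same length held one: 2 windows of Tgif1 (at -201 and at -60) and the window of Tgfb2 (at -204). The Tgif1 window with the box at -60 and the window of Tgfb2 lie inside their genes. The GC-rich element was in 1 of 10 (9.59% of all windows), AP-1 in 0 of 10 (6.75%), the E-box in 5 of 10 (66.2%) and the SP1 box in 6 of 10 (32.7%). By gene, the SMAD box was in 2 of 6, the GC-rich element in 1, AP-1 in 0, the E-box in 3 and the SP1 box in 5. A match of these letters describes the window and does not measure binding.

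Levels below are TPM (a level corrected for transcript length and scaled to the same total in each library) in each library, replicate 1 before replicate 2. Differences are log2 fold changes with their standard errors from the quasi-likelihood test of edgeR on the counts, called where the Benjamini-Hochberg adjusted p over all genes tested was under 0.05. The 4 comparisons of H2O2 or KCl with their control share the same control libraries, and so do the 2 heat comparisons; values are therefore set side by side.

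**Figure D1:**
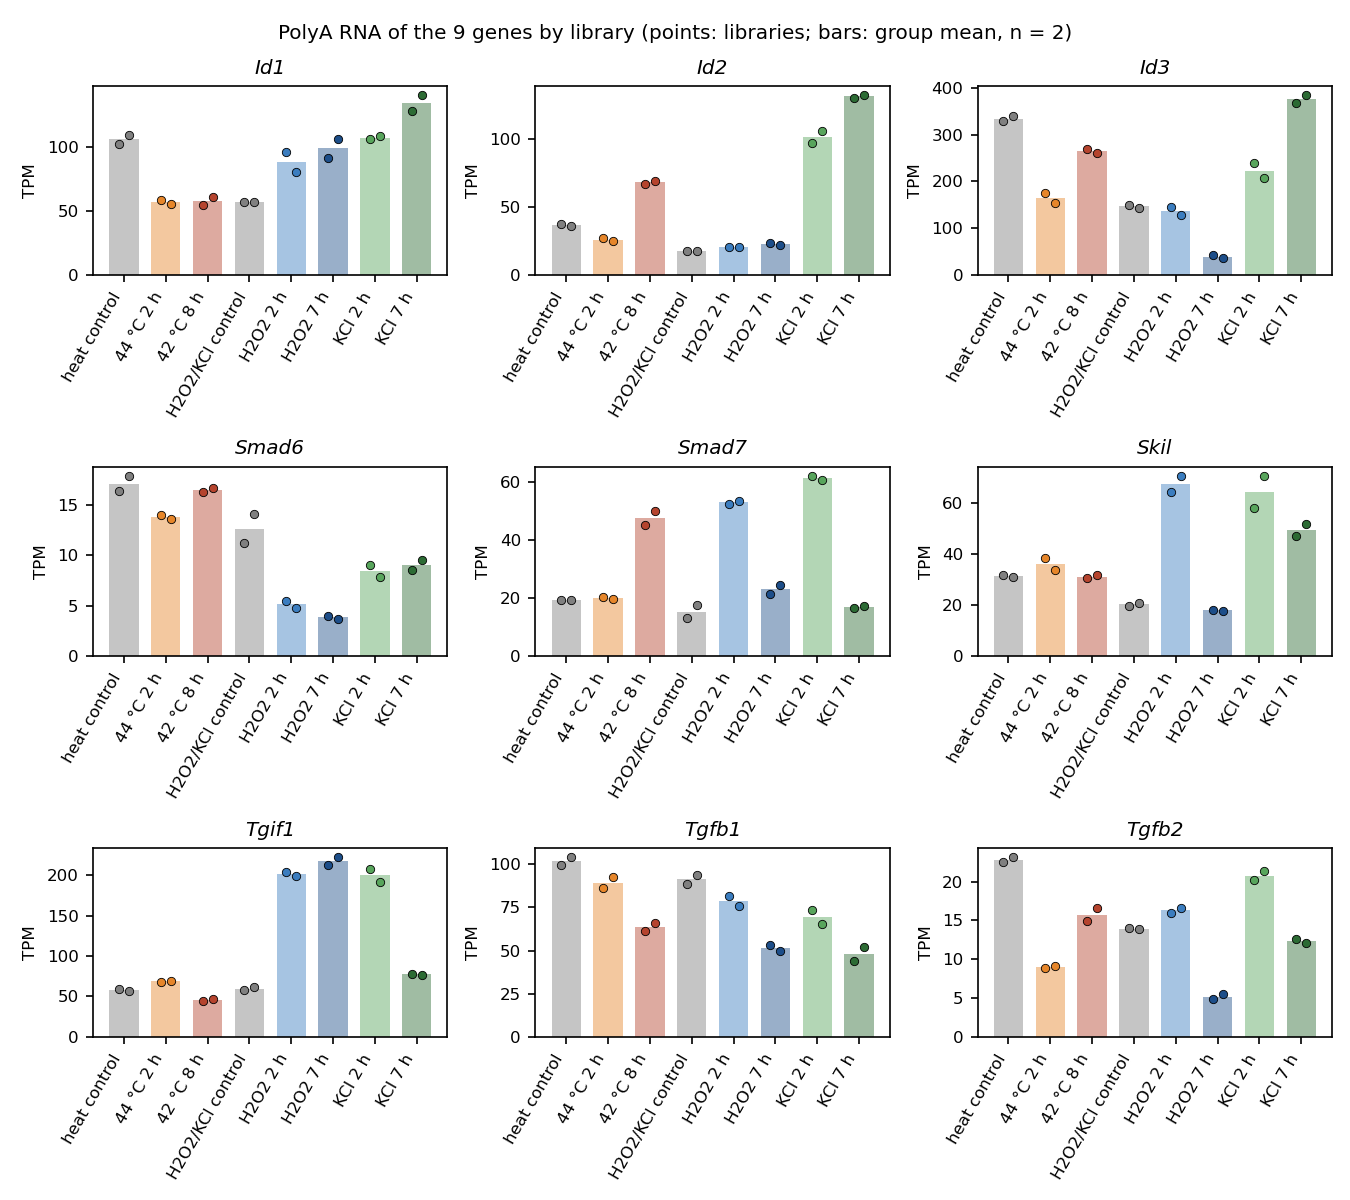
RNA level in TPM (vertical axis, from 0) of each of the 9 genes in the 8 groups (horizontal axis); points are the 2 libraries of a group and bars their mean. Id2 is highest in KCl at 7 h (130.04 and 132.05 TPM), Id3 is lowest in H2O2 at 7 h (41.70 and 36.17 TPM), and Smad7 is high at 42 °C, at 2 h of either agent, and lower again at 7 h.

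In RNA most of the 9 genes changed in each comparison with a control, as did most genes measured. At 44 °C for 2 h, 8 of the 9 were called (2 higher, 6 lower), beside 71.0% of all genes (35.4% higher, 35.7% lower), and the median log2 fold change was -0.38 over the 9 and 0 over all genes. At 42 °C for 8 h, 7 of the 9 were called (3 higher, 4 lower), beside 63.6% of all genes (31.7% higher, 31.9% lower), with a median of -0.13 over the 9 and -0.01 over all genes. Id1, Id3, Tgfb1 and Tgfb2 were called lower at both temperatures and Skil higher at both.

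Under H2O2 for 2 h, 8 of the 9 were called (6 higher, 2 lower), beside 53.9% of all genes (27.3% higher, 26.5% lower), with a median of 0.22. Under KCl for 2 h, 9 of the 9 were called (7 higher, 2 lower), beside 54.2% of all genes (27.2% higher, 27.0% lower), with a median of 1.00. By 7 h of H2O2, 8 of the 9 were called (4 higher, 4 lower), beside 70.5% of all genes (39.4% higher, 31.1% lower), with a median of -0.105. By 7 h of KCl, 8 of the 9 were called (6 higher, 2 lower), beside 68.8% of all genes (37.2% higher, 31.6% lower), with a median of 0.49. The medians over all genes were -0.001, 0, 0.075 and 0.039 in the same order. Smad7, Skil and Tgif1 were higher at 2 h of either agent, Id1 and Id2 were higher and Smad6 and Tgfb1 lower in all 4 groups.

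**Figure D2:**
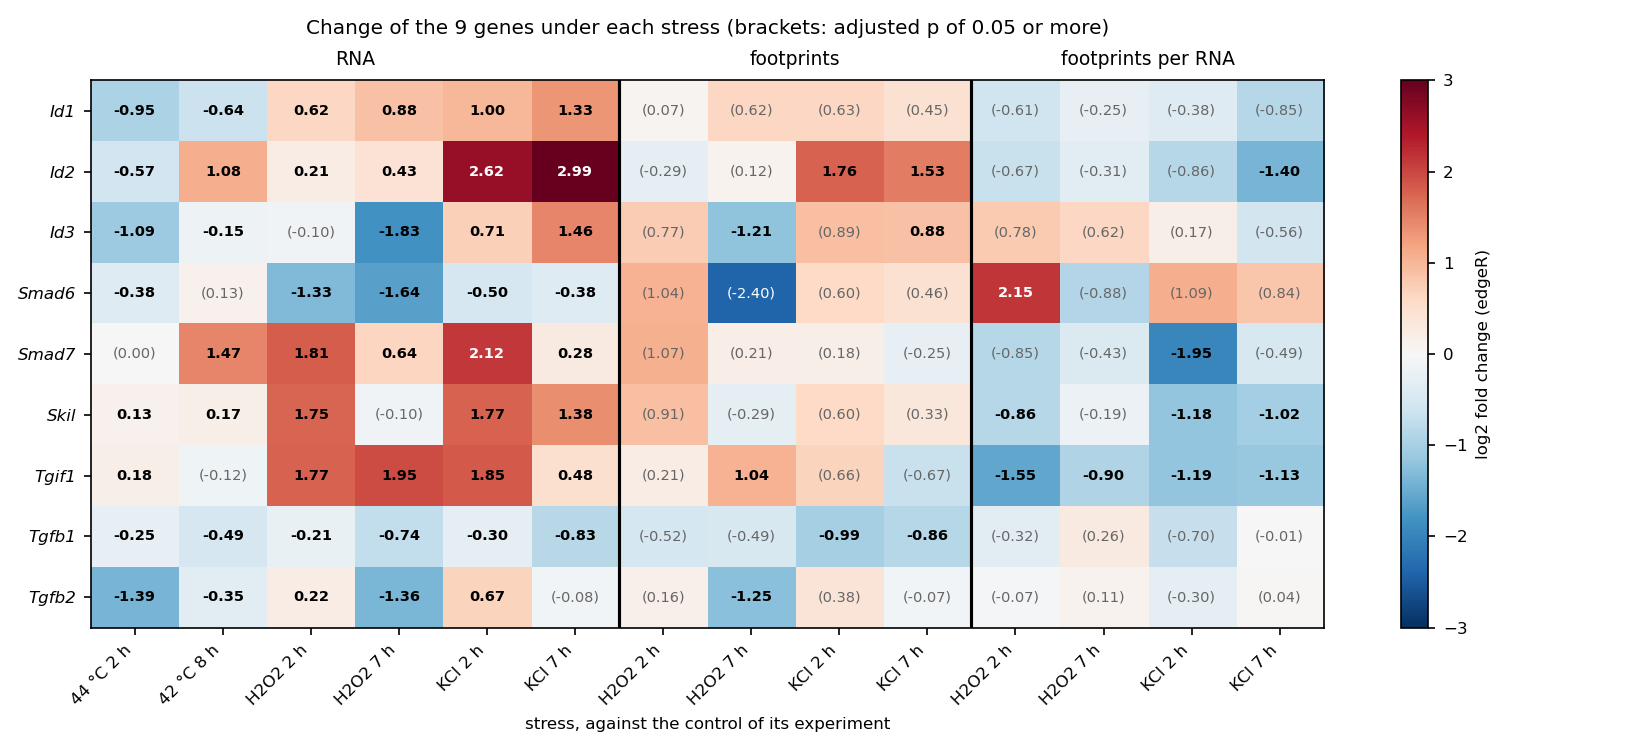
Log2 fold change of each of the 9 genes (rows) against the control of its experiment (columns: RNA in 6 stresses, footprints in 4, footprints per RNA in 4), coloured from -3 (blue) to 3 (red); bold values had an adjusted p under 0.05 and values in brackets did not. The RNA columns hold 8, 7, 8, 8, 9 and 8 bold values and the footprint columns 0, 3, 2 and 3.

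The ligand Tgfb1 lies on chromosome 7 (chr7:25687002-25705077, GRCm38) and encodes the most widely expressed form of TGF-beta. Its RNA had 99.76 and 104.27 TPM in the heat control, 86.25 and 92.66 TPM at 44 °C and 61.08 and 66.16 TPM at 42 °C. Against 88.82 and 93.99 TPM in the second control, H2O2 gave 81.52 and 76.03 TPM (2 h) and 53.43 and 49.69 TPM (7 h), and KCl gave 73.60 and 65.22 TPM (2 h) and 43.69 and 52.34 TPM (7 h). Every stressed library lay below both of its controls. Tgfb1 fell by 0.25 ± 0.05 (adjusted p = 0.000638) at 44 °C and by 0.50 ± 0.05 (adjusted p = 2.3e-06) at 42 °C. After 7 h it fell by 0.74 ± 0.08 (adjusted p = 1.81e-06) in H2O2 and by 0.83 ± 0.08 (adjusted p = 7.97e-07) in KCl. After 2 h the differences were smaller, -0.22 ± 0.08 (adjusted p = 0.0376) in H2O2 and -0.30 ± 0.08 (adjusted p = 0.00663) in KCl. The first lost its call without either control library or without H2O2 replicate 2 (highest adjusted p 0.215), and the second without control replicate 2 or KCl replicate 2 (highest 0.0656). Between 2 h and 7 h the gene fell further, by 0.53 ± 0.08 in H2O2 and by 0.53 ± 0.09 in KCl. No difference between H2O2 and KCl was called at 2 h (0.09 ± 0.08, adjusted p = 0.415) or at 7 h (0.09 ± 0.09, adjusted p = 0.367).

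Tgfb2, the other ligand (chr1:186622787-186709697), was less abundant and moved more widely. Its RNA had 22.46 and 23.16 TPM in the heat control, 8.91 and 9.10 TPM at 44 °C and 14.87 and 16.58 TPM at 42 °C. The second control had 14.01 and 13.84 TPM, H2O2 15.91 and 16.63 TPM (2 h) and 4.83 and 5.48 TPM (7 h), and KCl 20.18 and 21.30 TPM (2 h) and 12.58 and 12.08 TPM (7 h). The libraries at 44 °C and at 7 h of H2O2 were the lowest of their experiments, and those at 2 h of KCl the highest of theirs. Tgfb2 fell by 1.39 ± 0.06 (adjusted p = 2.58e-10) at 44 °C and by 0.35 ± 0.06 (adjusted p = 0.000159) at 42 °C, and was higher at 42 °C than at 44 °C by 1.04 ± 0.07 (adjusted p = 3.5e-09). It rose by 0.67 ± 0.07 (adjusted p = 2.39e-06) at 2 h of KCl and by 0.22 ± 0.07 (adjusted p = 0.0189) at 2 h of H2O2, the latter call being lost without any 1 of its 4 libraries (highest adjusted p 0.13). At 7 h it fell by 1.36 ± 0.08 (adjusted p = 1.49e-09) in H2O2, while the difference in KCl was not called (-0.08 ± 0.07, adjusted p = 0.327). From 2 h to 7 h it fell by 1.58 ± 0.08 in H2O2 and by 0.75 ± 0.07 in KCl.

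Id1 (chr2:152736251-152737410) is the classic BMP target among the ID genes, and its RNA moved in opposite directions in the 2 experiments. In heat it was lower in every stressed library, with 102.46 and 109.16 TPM in the control, 58.62 and 55.26 TPM at 44 °C and 54.81 and 60.49 TPM at 42 °C. Under the agents it was higher in every library: 57.08 and 57.10 TPM in the control, 95.96 and 80.13 TPM (2 h) and 91.35 and 106.33 TPM (7 h) in H2O2, 105.81 and 108.21 TPM (2 h) and 127.97 and 140.33 TPM (7 h) in KCl. Id1 fell by 0.95 ± 0.06 (adjusted p = 1.05e-08) at 44 °C and by 0.64 ± 0.06 (adjusted p = 9.37e-07) at 42 °C. It rose by 0.63 ± 0.09 (adjusted p = 6.47e-05) after 2 h and 0.88 ± 0.09 (adjusted p = 1.01e-06) after 7 h in H2O2, and in KCl by 1.00 ± 0.09 (adjusted p = 6.47e-07) and then 1.33 ± 0.09 (adjusted p = 1.91e-08). The controls of the 2 experiments differed in level and were not tested against each other.

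Id2 (chr12:25093799-25096092), the ID gene with the largest change from a control among the 9 genes, rose strongly in KCl and little in H2O2. Its RNA had 17.65 and 17.81 TPM in the control, 96.72 and 105.87 TPM after 2 h of KCl and 130.04 and 132.05 TPM after 7 h of KCl, far apart from the control. Under H2O2 it had 20.60 and 20.58 TPM (2 h) and 23.46 and 21.66 TPM (7 h), above the control by a small margin. Id2 rose by 2.62 ± 0.08 (adjusted p = 1.42e-11) at 2 h and by 2.99 ± 0.07 (adjusted p = 1.92e-12) at 7 h of KCl. In H2O2 the rise was 0.43 ± 0.08 (adjusted p = 0.0003) at 7 h and 0.22 ± 0.08 (adjusted p = 0.0403) at 2 h, the latter lost without any 1 of its 4 libraries (highest adjusted p 0.257) and with DESeq2 (0.0927). The log2 difference of H2O2 from KCl was -2.40 ± 0.08 at 2 h and -2.56 ± 0.07 at 7 h. Heat moved it in opposite directions: the control had 37.07 and 35.97 TPM, cells at 44 °C 26.76 and 24.62 TPM and cells at 42 °C 66.98 and 69.04 TPM. It fell by 0.57 ± 0.07 (adjusted p = 2.96e-06) at 44 °C and rose by 1.08 ± 0.06 (adjusted p = 2.88e-09) at 42 °C.

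Id3 (chr4:136143822-136145392), the most abundant of the 9 in RNA in both controls, rose in KCl as Id2 did and fell late in H2O2. Its RNA had 150.04 and 143.02 TPM in the control, 238.62 and 207.45 TPM after 2 h of KCl and 367.97 and 384.78 TPM after 7 h of KCl. H2O2 for 2 h left it at 144.61 and 128.95 TPM, overlapping the control, and H2O2 for 7 h at 41.70 and 36.17 TPM, the lowest of all groups. Id3 rose by 0.71 ± 0.08 (adjusted p = 5.19e-06) at 2 h and by 1.46 ± 0.08 (adjusted p = 2.33e-09) at 7 h of KCl. In H2O2 no difference was called at 2 h (-0.10 ± 0.08, adjusted p = 0.316), and it fell by 1.83 ± 0.09 (adjusted p = 3.1e-10) at 7 h. The log2 difference of H2O2 from KCl at 7 h was -3.29 ± 0.09 (adjusted p = 6.42e-13). In heat, the control had 329.00 and 339.41 TPM and cells at 44 °C 174.15 and 154.07 TPM, a fall by 1.09 ± 0.05 (adjusted p = 3.07e-10). Cells at 42 °C had 269.62 and 259.93 TPM, a difference of -0.15 ± 0.05 (adjusted p = 0.0175) that lost its call without control replicate 2 or 42 °C replicate 2 (highest adjusted p 0.158).

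Smad6 (chr9:63953076-64022085), the inhibitory SMAD of the BMP branch, was lower under both agents. Its RNA had 11.25 and 14.08 TPM in the control, 5.48 and 4.76 TPM (2 h) and 3.97 and 3.68 TPM (7 h) in H2O2, and 9.02 and 7.88 TPM (2 h) and 8.54 and 9.51 TPM (7 h) in KCl. All 8 stressed libraries lay below both controls, those of H2O2 furthest. Smad6 fell by 1.33 ± 0.12 (adjusted p = 5.94e-07) at 2 h and by 1.64 ± 0.13 (adjusted p = 3.64e-08) at 7 h of H2O2. In KCl it fell by 0.50 ± 0.12 (adjusted p = 0.00237) at 2 h and by 0.38 ± 0.12 (adjusted p = 0.00893) at 7 h, the latter lost without control replicate 2 or KCl replicate 1 (highest adjusted p 0.13). The log2 difference of H2O2 from KCl was -0.83 ± 0.13 (adjusted p = 0.000115) at 2 h and -1.26 ± 0.14 (adjusted p = 8.17e-07) at 7 h. In heat the control had 16.37 and 17.90 TPM, cells at 44 °C 14.03 and 13.57 TPM and cells at 42 °C 16.31 and 16.67 TPM, the last overlapping the control. It fell by 0.38 ± 0.07 (adjusted p = 0.000156) at 44 °C, and no change was called at 42 °C (0.13 ± 0.07, adjusted p = 0.102).

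Smad7 (chr18:75367365-75395935), whose product blocks the receptors of both branches, was high at 2 h and much lower at 7 h. Its RNA had 12.98 and 17.44 TPM in the control, 52.40 and 53.49 TPM after 2 h of H2O2 and 62.04 and 60.62 TPM after 2 h of KCl. By 7 h it had 21.50 and 24.41 TPM in H2O2 and 16.56 and 17.32 TPM in KCl, the latter between the control libraries. Smad7 rose by 1.81 ± 0.11 (adjusted p = 7.97e-09) at 2 h of H2O2 and by 2.12 ± 0.11 (adjusted p = 1.79e-09) at 2 h of KCl. At 7 h the rise was 0.64 ± 0.11 (adjusted p = 0.000137) in H2O2 and 0.28 ± 0.11 (adjusted p = 0.044) in KCl, the latter lost without control replicate 1 or either KCl library (highest adjusted p 0.575). From 2 h to 7 h it fell by 1.18 ± 0.11 in H2O2 and by 1.84 ± 0.11 in KCl. In heat the control had 19.18 and 19.14 TPM, cells at 44 °C 20.44 and 19.77 TPM and cells at 42 °C 45.07 and 50.06 TPM. No change was called at 44 °C (0.00 ± 0.06, adjusted p = 0.971), and it rose by 1.47 ± 0.05 (adjusted p = 2.44e-11) at 42 °C.

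Skil (chr3:31095058-31122923), which encodes the corepressor SnoN, rose at 2 h under both agents and stayed high in KCl. Its RNA had 19.65 and 20.93 TPM in the control, 64.26 and 70.43 TPM (2 h) and 17.87 and 17.78 TPM (7 h) in H2O2. KCl gave 58.03 and 70.62 TPM (2 h) and 46.90 and 51.77 TPM (7 h), all above the control, whereas H2O2 at 7 h lay just below it. Skil rose by 1.75 ± 0.08 (adjusted p = 9.22e-10) at 2 h of H2O2, by 1.77 ± 0.08 (adjusted p = 9.36e-10) at 2 h of KCl and by 1.38 ± 0.08 (adjusted p = 5.74e-09) at 7 h of KCl. At 7 h of H2O2 its difference from the control was not called (-0.105 ± 0.09, adjusted p = 0.288; 0.0182 when only those groups were fitted), and that from KCl was -1.49 ± 0.09 (adjusted p = 9.31e-10). In heat the control had 31.87 and 30.89 TPM, cells at 44 °C 38.28 and 33.68 TPM and cells at 42 °C 30.47 and 31.80 TPM, the last overlapping the control. The differences were 0.13 ± 0.05 (adjusted p = 0.0267) at 44 °C and 0.17 ± 0.05 (adjusted p = 0.00729) at 42 °C. The first was lost without control replicate 2 or 44 °C replicate 1 and the second without control replicate 2 or 42 °C replicate 2 (highest adjusted p 0.31 and 0.0586). On the log2(TPM + 1) scale, where the median of all genes stood at -0.175, the second was -0.011.

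Tgif1 (chr17:70844205-70853532), the homeodomain corepressor, rose at 2 h under both agents and stayed high in H2O2. Its RNA had 57.64 and 61.86 TPM in the control, 204.20 and 199.51 TPM (2 h) and 212.83 and 222.84 TPM (7 h) in H2O2, and 208.03 and 192.08 TPM (2 h) and 78.20 and 76.44 TPM (7 h) in KCl. Tgif1 rose by 1.77 ± 0.06 (adjusted p = 4.41e-11) at 2 h and by 1.95 ± 0.07 (adjusted p = 4.3e-12) at 7 h of H2O2. In KCl it rose by 1.85 ± 0.07 (adjusted p = 6.86e-11) at 2 h and by 0.49 ± 0.07 (adjusted p = 1.5e-05) at 7 h. At 2 h no difference between H2O2 and KCl was called in Skil (-0.03 ± 0.08, adjusted p = 0.825) or in Tgif1 (-0.07 ± 0.06, adjusted p = 0.341). At 7 h the corepressors had opposite orders, Tgif1 being higher in H2O2 than in KCl by 1.47 ± 0.07 (adjusted p = 5.47e-11) and Skil lower. In heat the control had 59.17 and 56.19 TPM, cells at 44 °C 68.00 and 69.60 TPM and cells at 42 °C 44.65 and 47.19 TPM, so that the 3 groups did not overlap. It rose by 0.18 ± 0.05 (adjusted p = 0.00871) at 44 °C, a call lost without control replicate 2 or 44 °C replicate 2 (highest adjusted p 0.0744), and was not called at 42 °C (-0.13 ± 0.06, adjusted p = 0.0658; -0.323, adjusted p = 0.000113 on the log2(TPM + 1) scale).

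Compared directly, both durations and both agents differed in most of the 9 genes. From 2 h to 7 h of H2O2, 8 of the 9 were called (3 higher, 5 lower), beside 73.4% of all genes (37.3% higher, 36.1% lower); the rises of Id1, Id2 and Tgif1 (0.18 to 0.25) were not called with DESeq2, and each was lost without at least 1 library. Over the same interval of KCl, 8 of the 9 were called (3 higher, 5 lower), beside 68.8% of all genes (35.1% higher, 33.7% lower), the rises being those of Id1, Id2 and Id3. Between H2O2 and KCl at 2 h, 6 of the 9 were called (0 higher, 6 lower), beside 51.3% of all genes (27.0% higher, 24.2% lower); the calls of Id1 (-0.38 ± 0.09) and Smad7 (-0.31 ± 0.10) were lost without at least 1 library. Between H2O2 and KCl at 7 h, 8 of the 9 were called (2 higher, 6 lower), beside 78.4% of all genes (41.0% higher, 37.4% lower), and the median was -1.26 over the 9 and 0.045 over all genes. With the 42 °C cells set against the 44 °C cells, 8 of the 9 were called (6 higher, 2 lower), beside 75.1% of all genes (37.9% higher, 37.2% lower); temperature and duration cannot be told apart there.

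Footprints followed the RNA in part. With edgeR 0 of the 9 were called at 2 h of H2O2, beside 1.91% of all genes (1.14% higher, 0.768% lower), although 3 (Id3, Smad7 and Skil) had an unadjusted p under 0.05 and DESeq2 called 1, Skil (adjusted p = 0.0139). With KCl for 2 h, 2 of the 9 were called (1 higher, 1 lower), beside 6.86% of all genes (1.79% higher, 5.06% lower). With H2O2 for 7 h, 3 of the 9 were called (1 higher, 2 lower), beside 27.7% of all genes (17.2% higher, 10.6% lower). With KCl for 7 h, 3 of the 9 were called (2 higher, 1 lower), beside 20.4% of all genes (10.5% higher, 9.83% lower). The median log2 footprint change of the 9 was 0.21 (2 h) and -0.295 (7 h) in H2O2, then 0.60 (2 h) and 0.33 (7 h) in KCl, against medians of all genes from -0.022 to 0.007.

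**Figure D3:**
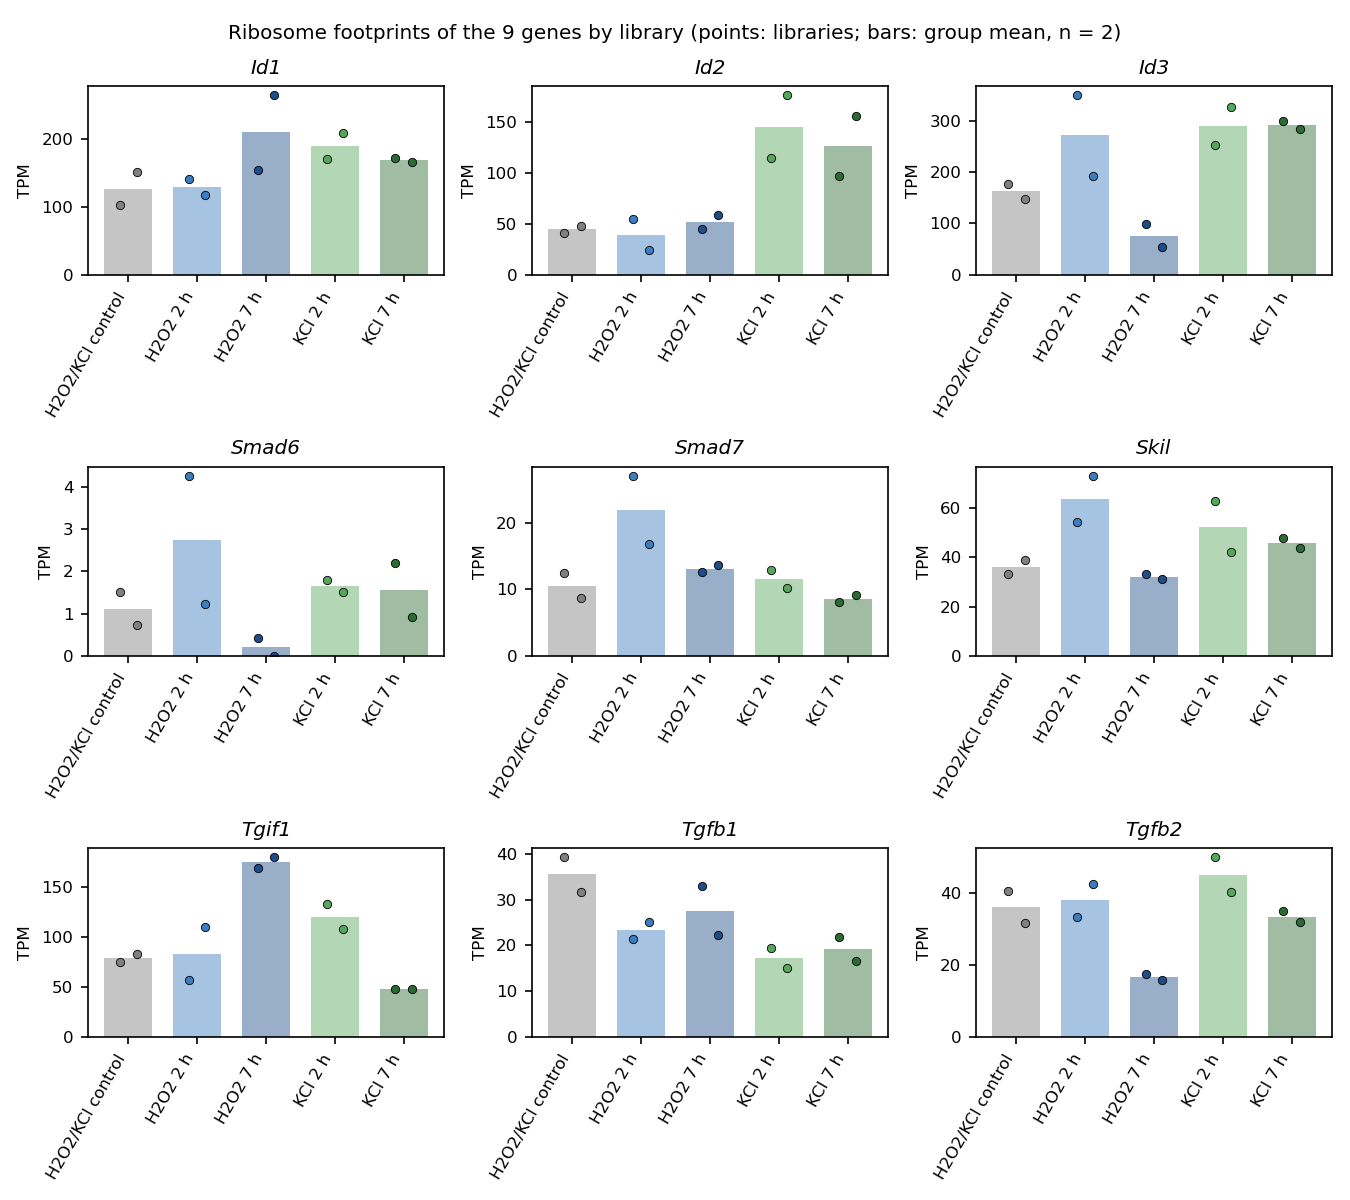
Footprint level in TPM (vertical axis, from 0) of each of the 9 genes in the 5 groups with ribosome profiling (horizontal axis); points are the 2 libraries of a group and bars their mean. Replicates of Id3 at 2 h of H2O2 lie far apart (349.82 and 192.65 TPM), and Id2 in KCl and Tgif1 at 7 h of H2O2 lie above both controls.

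Id2 footprints had 41.40 and 48.33 TPM in the control, 114.84 and 177.07 TPM after 2 h and 97.36 and 156.03 TPM after 7 h of KCl, with no overlap. They rose by 1.76 ± 0.37 (adjusted p = 0.0124) at 2 h and by 1.54 ± 0.37 (adjusted p = 0.0111) at 7 h, calls lost without control replicate 1 or without KCl replicate 2 of that time (highest adjusted p 0.123 and 0.122). In H2O2 they had 54.71 and 24.00 TPM (2 h) and 45.40 and 59.39 TPM (7 h), overlapping the control. Id3 footprints had 176.62 and 147.80 TPM in the control, 349.82 and 192.65 TPM (2 h) and 99.23 and 53.76 TPM (7 h) in H2O2, and 252.74 and 325.88 TPM (2 h) and 298.81 and 284.46 TPM (7 h) in KCl. At 7 h they fell by 1.21 ± 0.31 (adjusted p = 0.011) in H2O2, a call lost without H2O2 replicate 2 (adjusted p 0.11). In KCl they rose by 0.88 ± 0.29 (adjusted p = 0.0489), lost without any 1 of the 4 libraries (highest adjusted p 0.192). The direct difference of H2O2 from KCl at 7 h, -2.09 ± 0.31 (adjusted p = 0.000188), kept its call without each of its 4 libraries. Id1 footprints ranged from 103.30 to 265.41 TPM over the 10 libraries and were called in none of the 8 comparisons.

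Tgfb1 footprints had 39.29 and 31.65 TPM in the control, 19.36 and 15.07 TPM after 2 h and 21.81 and 16.50 TPM after 7 h of KCl, both below the control. They fell by 0.99 ± 0.25 (adjusted p = 0.0325) at 2 h and by 0.86 ± 0.25 (adjusted p = 0.0268) at 7 h. Both calls were lost without any 1 of their 4 libraries (highest adjusted p 0.21 and 0.192) and with DESeq2 (0.0593 and 0.0573). Tgfb2 footprints had 40.74 and 31.84 TPM in the control and 17.43 and 15.98 TPM after 7 h of H2O2. They fell by 1.25 ± 0.22 (adjusted p = 0.000949), a call kept without each of its 4 libraries, so that Tgfb2 was lower in RNA and in footprints.

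Tgif1 footprints had 74.82 and 82.85 TPM in the control, 57.11 and 109.80 TPM (2 h) and 169.38 and 180.41 TPM (7 h) in H2O2, and 132.84 and 108.40 TPM (2 h) and 47.51 and 48.25 TPM (7 h) in KCl. They rose by 1.04 ± 0.25 (adjusted p = 0.00739) at 7 h of H2O2, lost without control replicate 1 or H2O2 replicate 2 (highest adjusted p 0.0789). Between the times of KCl they fell by 1.34 ± 0.26 (adjusted p = 0.00437), and at 7 h they were higher in H2O2 than in KCl by 1.72 ± 0.26 (adjusted p = 0.000216), the same order as in RNA. Both of these calls were kept without each library. Skil footprints had 33.30 and 38.79 TPM in the control and 54.36 and 73.05 TPM after 2 h of H2O2, above both controls but not called (0.91 ± 0.22, adjusted p = 0.0518). In KCl they had 62.92 and 42.01 TPM (2 h) and 47.66 and 43.96 TPM (7 h), also above both controls and not called (0.60 ± 0.22, adjusted p = 0.132; 0.33 ± 0.22, adjusted p = 0.299).

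Smad7 footprints had 12.37 and 8.61 TPM in the control, 26.99 and 16.81 TPM after 2 h of H2O2 and 12.88 and 10.15 TPM after 2 h of KCl, where they overlapped the control although the RNA had risen. With edgeR their difference from the control at 2 h of H2O2 was not called (1.07 ± 0.295, adjusted p = 0.0835). The direct difference of H2O2 from KCl at 2 h was not called either (0.89 ± 0.30, adjusted p = 0.102). Smad6 footprints were few: 9 and 4 counts in the control, 10 and 10 counts (2 h) and 2 and 0 counts (7 h) in H2O2, 8 and 7 counts (2 h) and 9 and 5 counts (7 h) in KCl. The equal counts at 2 h of H2O2 come from libraries of unlike depth. They stand for 4.26 and 1.23 TPM, overlapping the control (1.51 and 0.72 TPM). Summed over replicates and set against the group totals, the level at 7 h of H2O2 was 0.178 of the control (95% exact interval 0.0195 to 0.787, counting error only) and 0.102 of that at 2 h of H2O2 (0.0116 to 0.42). Of these, edgeR called the second alone (adjusted p = 0.026; control adjusted p = 0.134), and not without replicate 1 of 2 h or replicate 2 of 7 h (highest adjusted p 0.16).

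The footprints were also compared between stressed groups. From 2 h to 7 h of H2O2, 6 of the 9 were called (1 higher, 5 lower), beside 29.8% of all genes (18.7% higher, 11.1% lower) (3 of the 9 when only those groups were fitted): Tgif1 higher, and Id3, Smad6, Smad7, Skil and Tgfb2 lower, of which Id3, Skil and Tgfb2 kept the call without each library. Over the same interval of KCl, 1 of the 9 were called (0 higher, 1 lower), beside 20.6% of all genes (12.1% higher, 8.43% lower). Between H2O2 and KCl at 2 h, 1 of the 9 were called (0 higher, 1 lower), beside 5.12% of all genes (3.03% higher, 2.10% lower): Id2, with a difference of -2.05 ± 0.40 (adjusted p = 0.0118) that was lost without replicate 2 of either group. Between H2O2 and KCl at 7 h, 5 of the 9 were called (1 higher, 4 lower), beside 41.2% of all genes (23.5% higher, 17.8% lower): Tgif1 higher in H2O2, and Id2, Id3, Skil and Tgfb2 lower, the calls of Id2 and Skil being lost without 2 and 4 of the libraries.

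**Figure D4:**
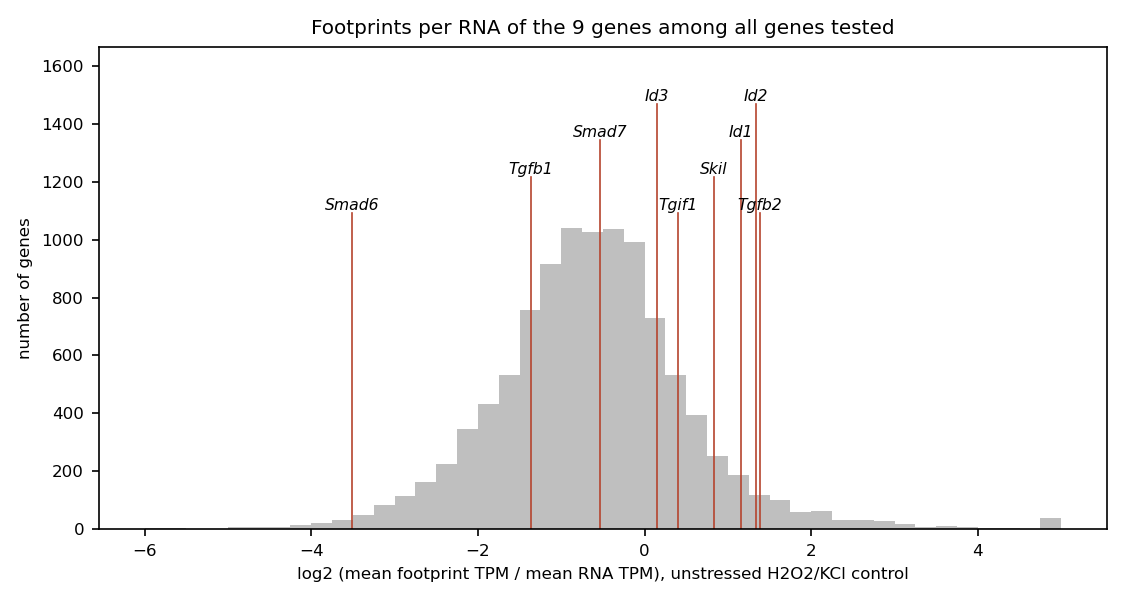
Distribution of the log2 ratio of mean footprint TPM to mean RNA TPM in the unstressed H2O2/KCl control (grey bars, number of genes on the vertical axis), with the 9 genes as red lines of staggered height. Shown are those of 10467 genes with both levels above 0, and the end bars also hold more extreme ratios. Tgfb2 (ratio 2.61), Id2 (2.53) and Id1 (2.23) lie in the upper tail and Smad6 (0.088) in the lower tail.

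Before stress, the 9 genes differed widely in footprints per RNA. The ratio of footprint to RNA TPM in the control was 2.61 for Tgfb2, 2.53 for Id2, 2.23 for Id1, 1.78 for Skil, 1.32 for Tgif1 and 1.11 for Id3. It was 0.69 for Smad7, 0.388 for Tgfb1 and 0.088 for Smad6, where the median of 10467 genes was 0.639. Smad6 lay at percentile 1.42 of all genes, on 13 footprint counts. The ligands stood apart, Tgfb2 at percentile 95.8 and Tgfb1 at percentile 23.7.

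Translational efficiency, the change of footprints relative to RNA tested as an interaction over both kinds of library, was lower for the corepressors under stress. The fit held a single spread per gene for RNA and footprints. Replicates correlated at 0.9938 to 0.9964 in RNA and at 0.9574 to 0.9782 in footprints, so standard errors of efficiency can be too small. That of Tgfb2 at 2 h of H2O2 was 0.179, below the 0.208 of its footprints alone. After 2 h of H2O2, 3 of the 9 were called (1 higher, 2 lower), beside 11.4% of all genes (3.98% higher, 7.46% lower). After 7 h of H2O2, 1 of the 9 were called (0 higher, 1 lower), beside 9.27% of all genes (4.69% higher, 4.57% lower). After 2 h of KCl, 3 of the 9 were called (0 higher, 3 lower), beside 12.8% of all genes (3.58% higher, 9.18% lower). After 7 h of KCl, 3 of the 9 were called (0 higher, 3 lower), beside 5.57% of all genes (1.69% higher, 3.88% lower). The median over the 9 was -0.61, -0.25, -0.70 and -0.555 in the same order, against medians of all genes from -0.021 to 0.057. Tgif1 was called lower in all 4 comparisons and Skil in 3.

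Tgif1 fell in efficiency by 1.55 ± 0.26 (adjusted p = 0.0012) at 2 h of H2O2 and by 1.19 ± 0.25 (adjusted p = 0.0049) at 2 h of KCl, both called without each of 8 libraries. At 7 h it fell by 0.90 ± 0.25 (adjusted p = 0.0305) in H2O2 and by 1.13 ± 0.27 (adjusted p = 0.0194) in KCl, calls lost without 6 and 7 of 8 libraries (highest adjusted p 0.113 and 0.0818). Its RNA had risen in all 4 groups and its footprints at 7 h of H2O2. At 7 h of KCl its footprints lay below both controls, a difference that edgeR did not call (-0.67 ± 0.26, adjusted p = 0.0855). It was called when only those groups were fitted (-0.69, adjusted p = 0.0409). Skil fell by 1.18 ± 0.23 (adjusted p = 0.0029) at 2 h of KCl, called without each of 8 libraries. It fell by 0.86 ± 0.23 (adjusted p = 0.0236) at 2 h of H2O2 and by 1.02 ± 0.23 (adjusted p = 0.016) at 7 h of KCl, lost without 5 and 4 of 8 libraries (highest adjusted p 0.0816 and 0.0693).

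Smad7 had the largest fall in efficiency of the 9, by 1.95 ± 0.31 (adjusted p = 0.000546) at 2 h of KCl, called without each of 8 libraries. Its RNA was 2.12 higher there on the log2 scale, and no change of its footprints was called (0.18 ± 0.30, adjusted p = 0.81). At 2 h of H2O2 the change in efficiency was not called (-0.85 ± 0.29, adjusted p = 0.0668). Id2 fell by 1.40 ± 0.35 (adjusted p = 0.0249) at 7 h of KCl, lost without 6 of 8 libraries (highest adjusted p 0.118). The rise of Smad6 by 2.15 ± 0.68 (adjusted p = 0.0481) at 2 h of H2O2 rests on 13 counts in the control and 20 in H2O2 and was lost without 7 of 8 libraries (highest adjusted p 0.226). With limma voom and a weight for each kind of library, Smad6 was not called at 2 h of H2O2 (2.098, adjusted p = 0.139). Of the efficiency results of the 9 genes, 35 were the same with that method and 1 was weaker. With edgeR neither ligand was called, with changes of -0.70 ± 0.24 to 0.26 ± 0.22 for Tgfb1 and -0.30 ± 0.18 to 0.11 ± 0.20 for Tgfb2. The difference of Tgfb1 at 2 h of KCl was the nearest to a call (-0.70 ± 0.24, adjusted p = 0.0594).

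**Figure D5:**
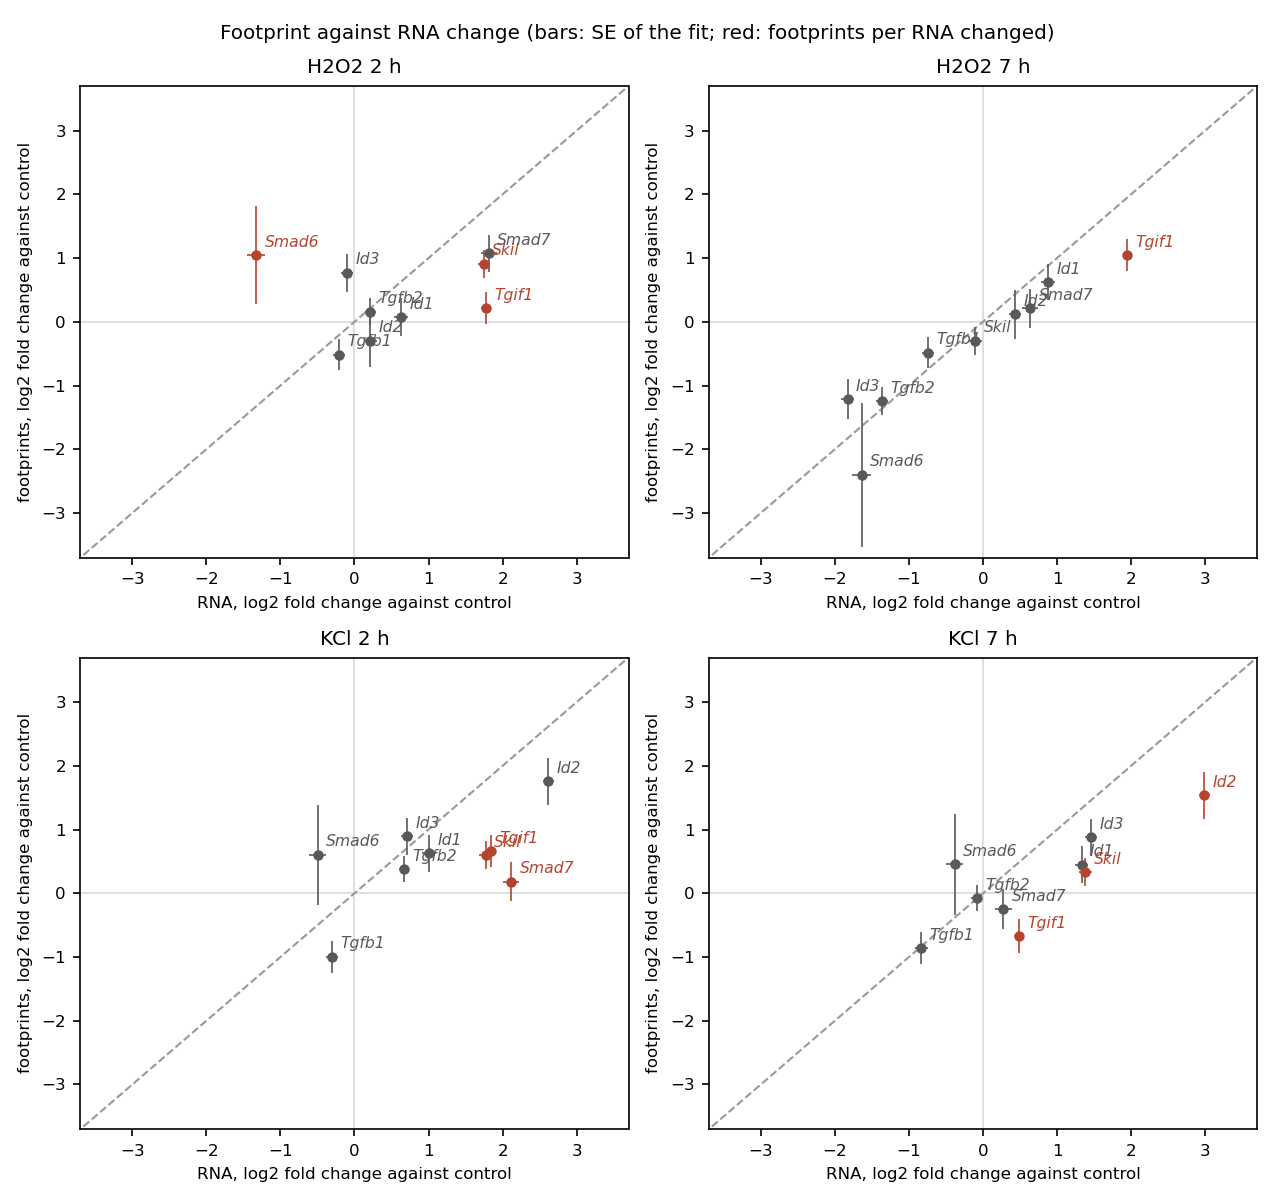
Log2 fold change of footprints (vertical axis) against that of RNA (horizontal axis), each against the shared control, for the 9 genes in the 4 stresses with both measures; bars are standard errors, the dashed line marks equal change, and red points were called in translational efficiency. Tgif1 lies below the line in all 4 panels (RNA 1.77 and footprints 0.21 at 2 h of H2O2), and Smad7 lies far below it at 2 h of KCl (RNA 2.12 and footprints 0.18).

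The rest of the pathway was counted over 61 genes in 6 lists: ligands and latency proteins, receptors, SMAD mediators, other inhibitors, targets of TGF-beta, and partners of the ID proteins. In RNA, 14 higher and 33 lower of 60 were called at 44 °C, beside 35.4% higher and 35.7% lower of all genes, and 25 higher and 25 lower of 60 at 42 °C, beside 31.7% higher and 31.9% lower. In H2O2 the counts were 21 higher and 17 lower of 61 at 2 h, beside 27.3% higher and 26.5% lower of all genes, and 21 higher and 30 lower of 61 at 7 h, beside 39.4% higher and 31.1% lower. In KCl they were 28 higher and 15 lower of 61 at 2 h, beside 27.2% higher and 27.0% lower of all genes, and 21 higher and 25 lower of 61 at 7 h, beside 37.2% higher and 31.6% lower. The medians over these genes ran from -0.18 at 7 h of H2O2 to 0.20 at 2 h of KCl, and those over all genes from -0.014 to 0.075. Of the targets of TGF-beta, 2 higher and 9 lower of 12 were called at 44 °C (median -0.54) and 8 higher and 4 lower of 12 at 42 °C (median 0.66). At 2 h the counts of targets were 6 higher and 3 lower of 12 in H2O2 (median 0.32) and 5 higher and 3 lower of 12 in KCl (median 0.14), and at 7 h 3 higher and 9 lower of 12 in H2O2 (median -0.36) and 1 higher and 9 lower of 12 in KCl (median -0.54). Of the 12 receptors, 3 higher and 6 lower were called at 44 °C and 1 higher and 9 lower at 42 °C. In H2O2 the receptors had 4 higher and 3 lower at 2 h and 5 higher and 3 lower at 7 h. In KCl they had 6 higher and 3 lower at 2 h and 8 higher and 1 lower at 7 h. Of the ligands and latency proteins, 3 higher and 7 lower of 13 were called at 44 °C and 5 higher and 6 lower at 42 °C. Of 14 in the agents, 2 higher and 5 lower were called at 2 h and 4 higher and 9 lower at 7 h of H2O2 (median -0.78 at 7 h). In KCl 5 higher and 2 lower were called at 2 h and 3 higher and 7 lower at 7 h. Other inhibitors had 4 to 7 higher and 3 to 6 lower of 13, and of the 6 SMAD mediators 0 to 3 were called in each direction. These counts describe the lists, and none was tested against the other genes.

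Named below are the 2 listed genes with the largest rise and the 2 with the largest fall in each comparison, among those called whose log2 CPM averaged 3 or more. At 44 °C Fst, which encodes the activin antagonist follistatin, rose by 2.39 ± 0.11 and Gdf11 by 0.82 ± 0.07, while the matrix-associated target Ccn2 fell by 1.58 ± 0.08 and Tagln by 1.44 ± 0.06. At 42 °C Nog, which encodes the BMP antagonist noggin, rose by 3.45 ± 0.11 and Fst by 2.10 ± 0.12, while the ligand Tgfb3 fell by 1.35 ± 0.06 and the cell-cycle inhibitor Cdkn1a by 1.13 ± 0.06. Fst was thus among the largest rises at both temperatures.

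After 2 h of H2O2 Ccn2 rose by 3.18 ± 0.09 and Junb, which encodes an AP-1 subunit, by 2.39 ± 0.07, while Snai1 fell by 1.64 ± 0.09 and Ski, the relative of Skil, by 0.66 ± 0.06. After 2 h of KCl Ccn2 rose by 2.23 ± 0.08 and Fst by 1.58 ± 0.10, while Snai1 fell by 1.45 ± 0.09 and the receptor gene Acvr1b by 1.10 ± 0.10. Ccn2, like Smad7, was high at 2 h of both agents. After 7 h of H2O2 Cdkn1a rose by 5.45 ± 0.08 and Inhba, which encodes an activin subunit, by 1.43 ± 0.12, while Thbs1 fell by 2.69 ± 0.08 and the ligand Bmp4 by 2.18 ± 0.09. After 7 h of KCl Furin, which encodes the protease that matures TGF-beta, rose by 1.23 ± 0.07 and Inhba by 1.19 ± 0.12, while Klf10 fell by 1.599 ± 0.07 and Cdkn1a by 1.42 ± 0.08.

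In footprints of H2O2, 3 higher and 0 lower of 54 were called at 2 h, beside 1.14% higher and 0.768% lower of all genes, and 9 higher and 7 lower of 54 at 7 h, beside 17.2% higher and 10.6% lower. In footprints of KCl the counts were 4 higher and 10 lower of 54 at 2 h, beside 1.79% higher and 5.06% lower of all genes, and 2 higher and 9 lower of 54 at 7 h, beside 10.5% higher and 9.83% lower. After 2 h of H2O2 Junb rose by 2.48 ± 0.25 and Cdkn1a by 1.62 ± 0.25, and after 7 h Cdkn1a rose by 5.31 ± 0.28 and Junb by 1.54 ± 0.24, while Nog fell by 4.46 ± 0.71 and Thbs1 by 2.67 ± 0.20. After 2 h of KCl Bmp4 rose by 1.38 ± 0.32 and Tgif2 by 1.27 ± 0.33, while the SMAD phosphatase gene Ppm1a fell by 1.84 ± 0.26 and Furin by 1.75 ± 0.23. After 7 h of KCl Snai2 rose by 2.06 ± 0.25 and Tgfbr3 by 0.84 ± 0.23, while Ccn2 fell by 2.77 ± 0.23. Cdkn1a was thus higher in RNA and in footprints at 7 h of H2O2.

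Over all lists, translational efficiency was called for 5 higher and 10 lower of 54 genes at 2 h of H2O2 (median -0.13). At 7 h of H2O2 8 higher and 4 lower were called (median 0.17). In KCl 2 higher and 15 lower were called at 2 h (median -0.31) and 3 higher and 7 lower at 7 h (median -0.04). The ligands and latency proteins had 4 higher and 1 lower of 11 called at 7 h of H2O2 (median 0.535). The other inhibitors had the lowest median of the lists at 2 h of KCl (-1.40). There 0 higher and 7 lower of 12 were called, beside 3.58% higher and 9.18% lower of all genes, and Fst fell by 2.51 ± 0.38. At 7 h of KCl the count of other inhibitors was 0 higher and 3 lower of 12 (median -0.66), beside 1.69% higher and 3.88% lower of all genes. In H2O2 it was 1 higher and 5 lower of 12 at 2 h (median -0.60), beside 3.98% higher and 7.46% lower, and 1 higher and 1 lower of 12 at 7 h (median -0.09), beside 4.69% higher and 4.57% lower. At 2 h of H2O2 Ccn2 fell by 2.53 ± 0.24 and Inhba fell by 2.06 ± 0.37. Inhba also fell by 2.24 ± 0.37 at 2 h of KCl. Bmp4 rose in efficiency by 1.49 ± 0.31 at 2 h and by 2.12 ± 0.35 at 7 h of H2O2.

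Over the 16 RNA libraries, after subtracting the mean of each experiment, the 2 genes whose log2 CPM ran most like each of the 9 were looked for among 9114 genes. They were Anxa5 (Pearson r 0.88) and Sytl2 (0.876) for Id1, Etv6 and Ctnna1 (0.977 each) for Id2, and Rad21 (0.99) and Srebf2 (0.986) for Id3. Smad6 ran most like Dcaf5 (0.947) and Ccdc102a (0.94), and Smad7 like Foxn2 (0.973) and Bdnf (0.967). Skil ran most like Nfkb1 (0.968) and Kansl1l (0.956), and Tgif1 like Dusp6 (0.955) and Ppp1r15a (0.944). The ligand Tgfb1 ran most like Rusc1 (0.975) and Gmppa (0.966), and Tgfb2 like Cav1 (0.989) and Col8a1 (0.988). Among the 9 themselves r was highest for Id3 with Tgfb2 (0.77) and with Smad6 (0.73), and lowest for Smad6 with Tgif1 (-0.79). These values describe 8 groups of 2 libraries each and share the libraries.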

How the data were processed

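RNA and ribosome footprints of NIH3T3 cells were quantified per gene by the authors, who deposited expected counts (whole numbers, so no rounding was needed) and TPM for each library. STAR, RSEM and Bowtie and the build mm10 are named in the submitters' processing notes, without versions or order. The authors also deposited calls and ratio estimates of transcription downstream of genes and of read-in for pairs of neighbouring genes; the labels do not state the formula. A further 12 columns match no sample here and were not used. The data were grouped by the labels alone.

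Counts were tested with edgeR 4.0.16 (TMM factors, filterByExpr, quasi-likelihood F test) in R 4.3.3, in 1 fit of the 6 heat RNA libraries (12747 genes), 1 of the 10 other RNA libraries (13256 genes) and 1 of the 10 footprint libraries (10545 genes). Translational efficiency was the interaction of stress and kind of library in 1 fit of 20 libraries (10480 genes). That fit held a single spread per gene for RNA and footprint libraries. Standard errors are the log2 fold change over the root of F, and p-values were adjusted by Benjamini-Hochberg over all genes of a fit at 0.05. Alternatives were DESeq2 1.42.0, RLE factors, no filter, limma 3.58.1 on log2(TPM + 1) with a mean of at least 1 TPM, limma voom for efficiency, only the groups compared, a replicate block, and leaving out each library. Fits were tested on simulated counts. For efficiency these gave RNA and footprints the same spread per gene, so they could not show the effect of an unequal spread. All 9 genes were described, and the other pathway genes were counted by list, those named being the 2 largest rises and falls in each comparison with a control among called genes of average log2 CPM at least 3; footprint and efficiency values are given for some of them. A gene that the rule also named is not reported here. Ccn2 is listed as Ctgf in the tables. The members and lists were chosen with earlier results of these data known. Coordinates and promoters are from RefSeq on GRCm38.p6. Counts of reads are not counts of molecules, so intervals cover counting error only.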

Additional observations from a re-analysis of the deposited data

Results flagged for a closer look

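Each effect here was called in opposite directions in a pair of groups, and the difference between the groups was itself called by edgeR. With 2 libraries in a group, single libraries that stand apart cannot be screened for.

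Id2 RNA rose by 1.08 at 42 °C for 8 h and fell by 0.57 at 44 °C for 2 h, on the log2 scale, and the difference between them was 1.656 (adjusted p = 2.82e-11). Tgfb2 RNA rose by 0.22 at 2 h of H2O2 and fell by 1.36 at 7 h, a difference of -1.577 (adjusted p = 3.48e-10); the rise at 2 h lost its call without any 1 of its 4 libraries. Id3 RNA fell by 1.83 at 7 h of H2O2 and rose by 1.46 at 7 h of KCl, a difference of -3.287 (adjusted p = 6.42e-13). Id3 footprints fell by 1.21 and rose by 0.88 in the same groups, a difference of -2.09 (adjusted p = 0.000188) that kept its call without each of the 4 libraries, although the rise in KCl lost its call without any 1 of its 4 and the fall in H2O2 without H2O2 replicate 2.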

How the results depend on the processing

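Of the counts of the 9 genes called, those in RNA stayed within 1.5 times the reported count under every alternative but DESeq2 from 2 h to 7 h of H2O2 (5 called, not 8) and leaving out a library at 2 h of H2O2 (5 to 6, not 8). In footprints at 2 h of H2O2 the count was 1, not 0, with RLE factors, with no filter and with DESeq2. At 2 h of KCl it was 1, not 2, with DESeq2, on the TPM scale and with only the groups compared, and at 7 h of KCl 1, not 3, on the TPM scale. From 2 h to 7 h of H2O2 it was 3, not 6, with only the groups compared. Without 1 library the footprint counts ran from 0 to 1 at 2 h of H2O2, 0 to 1 at 2 h of KCl, 0 to 1 at 7 h of KCl, 1 to 4 at 7 h of H2O2, 3 to 6 from 2 h to 7 h of H2O2, 0 to 1 between H2O2 and KCl at 2 h and 3 to 4 at 7 h. Those of translational efficiency ran from 1 to 4 at 2 h and 0 to 1 at 7 h of H2O2, and 3 to 4 at 2 h and 0 to 4 at 7 h of KCl. The cause was not tested, beyond there being fewer libraries in these fits.

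Over all genes the footprint count at 2 h of H2O2 was 201, and 315 with no filter, 45 on the TPM scale, 27 with only the groups compared and 37 to 145 without 1 library. At 2 h of KCl it was 723, and 455 on the TPM scale, 463 with only the groups compared and 211 to 421 without 1 library. Between H2O2 and KCl at 2 h it was 540, and 321, 145 and 122 to 429 in the same order. Without 1 library, 22 of 32 footprint counts moved by over 1.5 times: the other comparisons called 2925 (1681 to 2245) at 7 h of H2O2, 2148 (996 to 1381) at 7 h of KCl, 3139 (1828 to 2518) and 2170 (802 to 1256) between times, and 4346 (2952 to 3252) between agents at 7 h. With limma voom, efficiency was called for 659, 642, 732 and 221 genes in place of 1199 and 971 (H2O2) and 1337 and 584 (KCl); without 1 library for 586 to 1887, 453 to 915, 775 to 1305 and 230 to 534.

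Signs that turned belonged to genes not called, except Skil at 42 °C on the log2(TPM + 1) scale (-0.011). On that scale Smad6 at 42 °C was -0.051, Skil between 42 °C and 44 °C -0.2 (adjusted p = 0.0129 with limma), and Skil and Tgif1 between H2O2 and KCl at 2 h 0.07 and 0.014; Smad7 at 44 °C was -0.01 with no filter. The scale moved the median of all genes to -0.175 at 42 °C, -0.208 between 42 °C and 44 °C and -0.106 at 2 h of KCl in RNA, and to 0.101, 0.184 and 0.18 in footprints at 7 h of H2O2, against 2 h of it and against KCl. Without 1 library the sign turned in RNA for Skil (-0.027 to 0.114) between 42 °C and 44 °C, Smad7 (-0.014 to 0.013) at 44 °C, Skil (-0.155 to 0.112), Tgfb1 (-0.008 to 0.18) between H2O2 and KCl at 2 h and Tgfb1 (-0.029 to 0.203) between H2O2 and KCl at 7 h; in footprints for Id1 (-0.21 to 0.402), Id2 (-0.831 to 0.339), Tgfb2 (-0.048 to 0.295), Tgif1 (-0.384 to 0.562) at 2 h of H2O2, Id2 (-0.195 to 0.298) at 7 h of H2O2, Smad7 (-0.02 to 0.477) at 2 h of KCl and Smad6 (-0.227 to 1.049), Smad7 (-0.45 to 0.002), Tgfb2 (-0.198 to 0.072) at 7 h of KCl; and in efficiency for Id2 (-1.085 to 0.086), Tgfb2 (-0.31 to 0.081) at 2 h of H2O2, Id1 (-0.762 to 0.107), Smad6 (-6.247 to 0.089), Tgfb1 (-0.005 to 0.464) at 7 h of H2O2, Id3 (-0.081 to 0.389) at 2 h of KCl and Tgfb1 (-0.207 to 0.194), Tgfb2 (-0.083 to 0.177) at 7 h of KCl. With CPM in place of TPM the highest group was second (rank 2) for Skil and Smad6 in RNA and for Id1 and Id3 in footprints; in TPM the libraries of each of these groups overlapped those of the next.

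Same-numbered replicates did not deviate together in every pair (correlations of -0.025 to 0.117 in heat RNA, -0.053 to 0.054 in the other RNA and -0.384 to 0.417 in footprints, where 6 of 10 were over 0.1), so the replicates were treated as sharing only a number. In footprints the 6 pairs among the control, H2O2 at 7 h and both times of KCl correlated at 0.198 to 0.417, and the 4 pairs with H2O2 at 2 h at -0.384 to -0.046. With a replicate block the number of the 9 called was 6, not 5, in footprints between H2O2 and KCl at 7 h, and 4, not 3, in efficiency at 2 h of KCl, where Tgfb1 was added (-0.701, adjusted p = 0.0451 with edgeR); the other 21 counts were the same. Depth limits the footprints of Smad6, which had 0 to 10 counts in a library.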

Other observations

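The authors' deposited tables of neighbouring genes also hold 10 pairs with one of the 9 genes, each with a call of transcription downstream of the first gene in each of the 16 RNA libraries. Over these pairs 32 of 160 calls were positive, where 28.5% of 102384 calls over 6399 pairs were. Among all pairs the H2O2/KCl control had 24.7% positive. H2O2 gave 35.1% (2 h) and 20.3% (7 h), and KCl 33.3% (2 h) and 23.6% (7 h). In heat the share was 27.2% in the control, 32.7% (44 °C) and 31.2% (42 °C). Calls were thus more frequent over all pairs after 2 h of either agent than in their control. The pairs named next were not tested against these shares. The pair Id3 to E2f2 was called in both libraries of H2O2 at 2 h and at 7 h, of KCl at 2 h, of the heat control and of 42 °C, and in no library of the H2O2/KCl control, of 44 °C or of KCl at 7 h. The pair Smad6 to Smad3 was called in both libraries of KCl at 2 h and in none of the other 14, and the pair Dym to Smad7 in both libraries of H2O2 at 2 h and in 1 of 2 at each time of KCl.

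Read-in, transcription that runs from an upstream gene into the next, was called for 0 of 160 pair and library combinations of the 9 genes, and for 1.38% of 102384 over all pairs. Among these 10 pairs the highest read-in estimate in the authors' deposited table was that of Rrp15 to Tgfb2 at 2 h of KCl (0.0848 and 0.106), where Tgfb2 RNA was higher than in the control. The same pair had 0.0516 and 0.0316 at 44 °C, where Tgfb2 RNA was lower than in the control, and 0.0169 and 0.0241 at 2 h of H2O2. Its estimates were 0 in both libraries of either control. No test was run on these values, and the labels do not state their scale.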
